A study of Mus musculus with 26 samples.

Results

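Hcn2, Hcn3 and Hcn4 encode hyperpolarization-activated, cyclic nucleotide-gated (HCN) channels, often called pacemaker channels. These 3 genes were taken by symbol from the 39017 genes counted in dorsal root ganglion neurons of the mouse. All 3 were in both the count table and the RPKM table (read counts scaled to gene length and library size), and all 3 were among the 17411 genes that passed the filter on low counts. Other members of the family are not analysed here.

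An HCN channel is a tetramer that opens when the membrane hyperpolarizes and then passes sodium and potassium inward, which drives the membrane back toward firing threshold. Cyclic AMP binds a domain in the intracellular tail and, in HCN2 and HCN4, makes opening easier, whereas HCN3 responds little to it. HCN4 is best known from the sinoatrial node of the heart. In sensory neurons, HCN currents shape repetitive firing, and HCN2 has been studied for its role in inflammatory and neuropathic pain.

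RNA came from 8 subtypes of neuron sorted by fluorescence from acutely dissociated ganglia of mice aged postnatal day 23 or more. The reporter was MrgD-EGFP in nonpeptidergic and CGRP-GFP in peptidergic nociceptors, and in the rapidly adapting (RA) Aβ low-threshold mechanoreceptors (LTMRs) it was Npy2r-GFP, all without tamoxifen. C-LTMRs carried ThCreER;R26tdtomato(Ai14) and had tamoxifen at 2 mg per day at postnatal days 13 to 14 or 14 to 15. Aδ-LTMRs carried TrkBCreER with the Ai14 reporter and had 2 mg per day at embryonic days 12 to 13. Slowly adapting type 1 (SA1) Aβ-LTMRs and Aβ Field-LTMRs both came from mice with TrkCCreER and Retf(GFP), an allele that puts GFP at Ret. The SA1 group had tamoxifen at 3 mg per day at E12.5, and the Field group 2 mg per day at postnatal days 13 to 14 or 14 to 15. Proprioceptors, the muscle afferents, carried PVIRESCre with Ai14, without tamoxifen, and were taken from thoracic ganglia alone, since at limb levels this cross also marks some cutaneous LTMRs. Tamoxifen, reporter and subtype therefore cannot be told apart. There were 5 Aβ RA-LTMR libraries and 3 for each of the rest, and every one of the 26 combined cells of several mice and several sorts.

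Total counts were lowest in Aβ Field-LTMR library 2 (10706522) and highest in C-LTMR library 3 (66309214). The genes that drive the reporters were highest in the labelled subtype for Mrgprd, Calca, Th, Ntrk2 and Pvalb. Npy2r was not: its mean was 20.4 CPM (counts scaled to library size) in Aβ RA-LTMRs and 52.9 CPM in peptidergic nociceptors. Ntrk3 was 194 CPM in SA1 and 195 CPM in Field Aβ-LTMRs, so it does not separate that pair, and Ret was highest in C-LTMRs. Of 8 macrophage markers, 3 passed the filter. All 7 endothelial markers were tested, and they had a mean log2 CPM of 2.31 in Aδ-LTMRs and -0.84 or less elsewhere. By the mean of each list, Aδ-LTMRs were also highest for markers of pericytes and smooth muscle (2.54, against 1.05 or less) and fibroblasts (3.11, against 2.24 or less). They were highest too for myelinating Schwann cells (3.14, against 2.36 or less), where their libraries ran from 2.12 to 3.89. Some listed markers went the other way. C-LTMRs had more Rgs5 (1273 CPM, against 311 in Aδ-LTMRs), Dcn (117 against 17.8), Pmp22 (2429 against 1715) and the endothelial Egfl7 (8.05 against 7.08). They also had more of the Schwann cell marker Mbp (226 against 66.2) and of the fibroblast marker Pdgfra (20.4 against 3.03). Nonpeptidergic nociceptors had more Pdgfrb than Aδ-LTMRs (29.5 against 8.70 CPM), and proprioceptors more Egr2 (51.1 against 35.9). The part of such non-neuronal cells in the Aδ-LTMR values below was not tested. In these pooled cells, fewer cells with an RNA and less of it per cell cannot be told apart.

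The stretch of each gene that codes for the selectivity filter is shown first, because it shows how alike their reads can be. It was found by its Gly-Tyr-Gly signature in genes already taken by symbol, so the signature does not test their family. Capitals mark the 3 codons of Gly-Tyr-Gly, and each stretch lies in exon 4 of the gene's principal transcript (GENCODE M21, GRCm38, the same assembly as mm10), written on the coding strand.
Hcn2: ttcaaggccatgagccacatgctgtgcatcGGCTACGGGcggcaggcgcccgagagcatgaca
Hcn3: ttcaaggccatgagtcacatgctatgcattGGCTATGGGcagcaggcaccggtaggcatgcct
Hcn4: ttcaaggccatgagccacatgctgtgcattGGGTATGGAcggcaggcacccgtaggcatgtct
They lie at chr10:79728929-79728991 on the plus strand, chr3:89150982-89151044 on the minus strand and chr9:58855561-58855623 on the plus strand. Of the 63 bases, 51 were identical between Hcn2 and Hcn3, 53 between Hcn2 and Hcn4, and 56 between Hcn3 and Hcn4. Over the aligned coding sequences, identity was 76.1% for Hcn2 and Hcn3, 80.0% for Hcn2 and Hcn4 and 78.5% for Hcn3 and Hcn4. The longest run shared exactly by a pair of these transcripts was 33 bases, shorter than the full read length of 50 or 51 bases, although the shortest reads listed were 15 or 25 bases.

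Hcn2 (ENSMUSG00000020331, chromosome 10, 79716634 to 79736108, plus strand, 9 exons) was lowest in nociceptors and highest in proprioceptors. The nonpeptidergic nociceptor libraries stood at 3.44, 3.54 and 2.68 CPM, with a mean of 3.22 ± 0.466 (SD, n = 3). The peptidergic nociceptor libraries stood at 4.76, 5.70 and 4.73 CPM (5.06 ± 0.552, n = 3). C-LTMRs, the unmyelinated touch receptors, followed at 9.37, 10.8 and 10.99 CPM (10.4 ± 0.891, n = 3). These 3 groups did not overlap one another. Aβ Field-LTMRs stood at 16.9, 11.4 and 14.1 CPM (14.1 ± 2.79, n = 3). Aδ-LTMRs, which innervate hair follicles, stood at 14.5, 21.9 and 25.9 CPM (20.8 ± 5.79, n = 3), with library 1 inside the range of the Field group. Aβ SA1-LTMRs, the afferents of Merkel cells, stood at 28.1, 30.6 and 18.6 CPM (25.8 ± 6.32, n = 3). Aβ RA-LTMR libraries 1 to 5 stood at 23.8, 25.4, 26.3, 29.4 and 35.8 CPM (28.1 ± 4.76, n = 5). Proprioceptors stood at 42.9, 30.0 and 31.4 CPM (34.8 ± 7.05, n = 3), and both of the lower libraries lay within the range of the RA group. The plot of levels by library shows these groups.

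Across the 8 subtypes the means of Hcn2 spanned 10.8-fold, and the F test of edgeR's quasi-likelihood fit gave a Benjamini-Hochberg adjusted p of 1.1e-11. All 3 HCN genes passed that test, as did 78.3% of all genes tested, so passing it says little about these genes. Pairs of subtypes were called at an adjusted p under 0.05 with an absolute log2 fold change (log2FC) of at least 1. Hcn2 was called in 16 of the 28 pairs, against 21.8% of all gene-by-pair tests, and 9.79% of genes had at least as many called pairs. Its libraries did not overlap in 22 pairs, as in 45.1% of all gene-by-pair comparisons. The largest difference was between proprioceptors and nonpeptidergic nociceptors (edgeR log2FC 3.43, SE 0.25, adjusted p = 2.0e-11), a pair in which 34.4% of genes were called. Of the 7 pairs of neighbours in the order of means, 1 was called, C-LTMRs over peptidergic nociceptors (edgeR log2FC 1.04, SE 0.23, adjusted p = 0.0022), where 11.0% of genes were called. That call sat at the threshold, and the difference was 0.88 with limma on log2(RPKM + 1). Peptidergic over nonpeptidergic nociceptors had an adjusted p of 0.0297 in edgeR but a log2FC of 0.65, under the size required. Field-LTMRs and C-LTMRs did not overlap, yet their difference missed the threshold (edgeR log2FC 0.45, 95% interval -0.02 to 0.92, adjusted p = 0.15). Aδ-LTMRs over C-LTMRs fell just short of the size required (edgeR log2FC 0.997, SE 0.23, adjusted p = 0.0018). Among the high groups, proprioceptors and Aβ RA-LTMRs were not separated (edgeR log2FC 0.30, interval -0.11 to 0.72, adjusted p = 0.32). SA1 and RA Aβ-LTMRs were not separated either (edgeR log2FC -0.13, interval -0.55 to 0.29, adjusted p = 0.74).

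**Figure D1:**
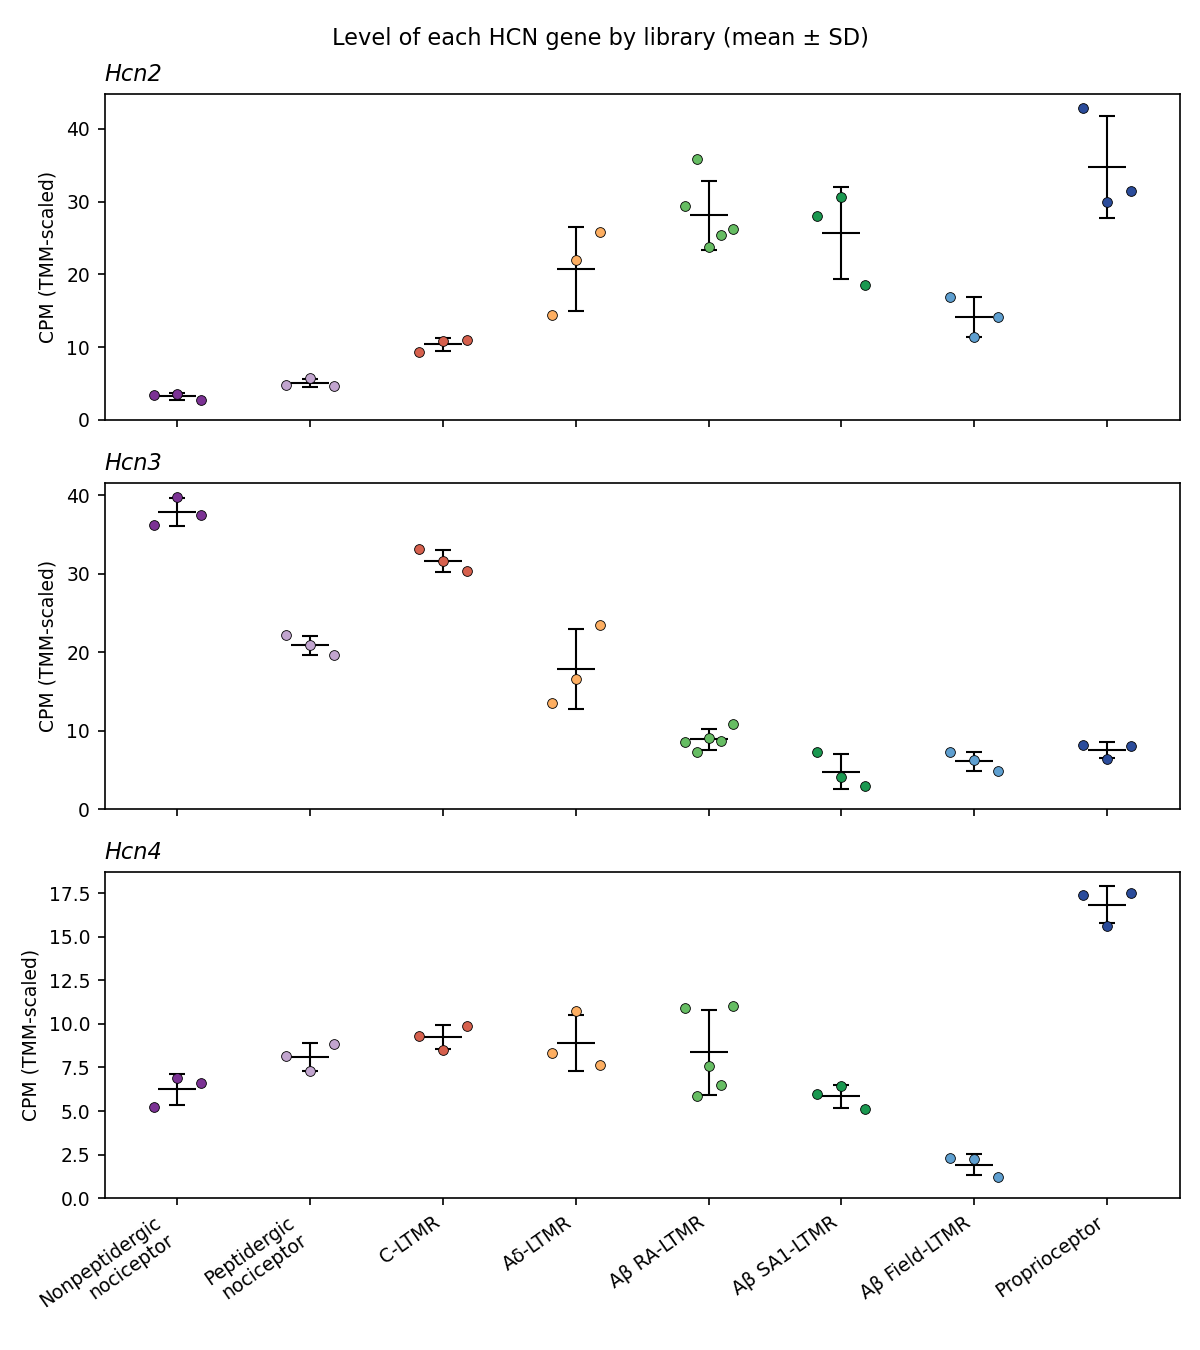
Level of Hcn2 (top), Hcn3 (middle) and Hcn4 (bottom) in CPM on a linear axis starting at 0, for the 8 subtypes along the x axis; each point is a library, and the bar with whiskers is the mean ± SD (n = 3, or n = 5 for Aβ RA-LTMRs). Hcn2 rises from 3.22 CPM in nonpeptidergic nociceptors to 34.8 CPM in proprioceptors, Hcn3 falls from 37.8 CPM to 4.76 CPM in Aβ SA1-LTMRs, and Hcn4 is highest in proprioceptors at 16.8 CPM and lowest in Field-LTMRs at 1.94 CPM.

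Hcn3 (ENSMUSG00000028051, chromosome 3, 89146074 to 89160196, minus strand, 8 exons) was highest in nonpeptidergic nociceptors and C-LTMRs, where Hcn2 was low. The order was not that of Hcn2 reversed throughout. By mean CPM, Field-LTMRs stood in place 5 for Hcn2 and 7 for Hcn3, and proprioceptors in place 1 and 6. Nonpeptidergic nociceptors stood at 36.2, 39.7 and 37.5 CPM (37.8 ± 1.77, n = 3). C-LTMRs stood at 33.1, 31.6 and 30.3 CPM (31.7 ± 1.41, n = 3). Peptidergic nociceptors stood at 22.1, 20.9 and 19.6 CPM (20.9 ± 1.24, n = 3), below every library of nonpeptidergic nociceptors and C-LTMRs. Aδ-LTMRs were spread widely, at 13.5, 16.6 and 23.5 CPM (17.9 ± 5.09, n = 3), and library 3 lay above all peptidergic nociceptor libraries. That library also had the highest Hcn2 of the group in CPM, although in RPKM it had the lowest level of both genes. Libraries 1 and 2 had reads of up to 51 bases where library 3 had 50. Their mapping rates, 61.4% and 74.5%, were the lowest of the 26 libraries, where library 3 had 93.8%. The part of these differences in the Aδ-LTMR spread was not tested. Aβ RA-LTMR libraries 1 to 5 stood at 9.05, 8.62, 10.9, 8.57 and 7.24 CPM (8.87 ± 1.31, n = 5). Proprioceptors stood at 8.16, 6.38 and 8.002 CPM (7.52 ± 0.985, n = 3). Field-LTMRs stood at 7.25, 6.29 and 4.83 CPM (6.12 ± 1.21, n = 3), overlapping the proprioceptors. SA1-LTMRs were lowest, at 7.24, 4.03 and 3.01 CPM (4.76 ± 2.21, n = 3), with library 1 inside the range of the Field group.

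The means of Hcn3 spanned 7.95-fold (edgeR F test, adjusted p = 4.2e-11). Hcn3 was called in 17 of the 28 pairs, and 7.84% of genes had at least as many. Its libraries did not overlap in 22 pairs, or 78.6%, against 45.1% of all gene-by-pair comparisons. The largest difference was between SA1-LTMRs and nonpeptidergic nociceptors (edgeR log2FC -2.99, SE 0.26, adjusted p = 6.6e-10), where 34.3% of genes were called. The 1 neighbour pair called was the step down from Aδ-LTMRs to Aβ RA-LTMRs (edgeR log2FC -1.01, SE 0.22, adjusted p = 0.0016; 11.0% of genes called), and without Aδ-LTMR library 3 that difference was -0.76. C-LTMRs and nonpeptidergic nociceptors did not overlap, yet their difference missed the threshold (edgeR log2FC -0.26, interval -0.76 to 0.24, adjusted p = 0.44). Aδ-LTMRs and peptidergic nociceptors overlapped and were not separated (edgeR log2FC -0.22, interval -0.73 to 0.28, adjusted p = 0.54). The 2 kinds of nociceptor differed in Hcn3 by less than the size required (edgeR log2FC -0.86, SE 0.24, adjusted p = 0.0071, peptidergic lower). With the mean log2 CPM of satellite glia markers as a covariate, that difference was -0.12. On the opposite strand, Pklr, a pyruvate kinase gene, overlaps 711 bases of Hcn3 exons, and whether the counting used strand is not given in the sources used here. Pklr itself had at most 5 counts in any library.

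Hcn4 (ENSMUSG00000032338, chromosome 9, 58823412 to 58863175, plus strand, 8 exons) set apart proprioceptors at the top and Aβ Field-LTMRs at the bottom. Proprioceptors stood at 17.4, 15.6 and 17.5 CPM (16.8 ± 1.05, n = 3), above all 23 other libraries. Field-LTMRs stood at 2.33, 2.23 and 1.25 CPM (1.94 ± 0.599, n = 3), from 101, 22 and 57 counts, below all 23 others. The 6 groups between them lay close together. C-LTMRs stood at 9.29, 8.50 and 9.87 CPM (9.22 ± 0.689, n = 3). Aδ-LTMRs stood at 8.36, 10.7 and 7.66 CPM (8.92 ± 1.61, n = 3). Aβ RA-LTMR libraries 1 to 5 stood at 7.56, 6.51, 11.1, 10.9 and 5.87 CPM (8.37 ± 2.44, n = 5), the widest spread of any group. Its libraries 3 and 4 lay above the range of the C-LTMRs and the other 3 below it. Peptidergic nociceptors stood at 8.18, 7.29 and 8.86 CPM (8.11 ± 0.790, n = 3). Nonpeptidergic nociceptors stood at 5.24, 6.89 and 6.60 CPM (6.24 ± 0.880, n = 3). SA1-LTMRs stood at 5.97, 6.43 and 5.12 CPM (5.84 ± 0.663, n = 3), overlapping the nonpeptidergic nociceptors.

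The means of Hcn4 spanned 8.70-fold (edgeR F test, adjusted p = 6.0e-08). Hcn4 was called in 11 of the 28 pairs, and 23.5% of genes had at least as many. Its libraries did not overlap in 19 pairs, or 67.9%, against 45.1% of all gene-by-pair comparisons. Field-LTMRs were called lower in all 7 of their pairs, the smallest step being to SA1-LTMRs (edgeR log2FC -1.62, SE 0.27, adjusted p = 3.1e-04; 8.87% of genes called). That step was -0.70 with limma on log2(RPKM + 1), where the adjusted p was 0.0724. Field-LTMRs and SA1-LTMRs share their alleles and differ in the tamoxifen schedule. Proprioceptors were called over 5 of the other 7 groups, the largest being over Field-LTMRs (edgeR log2FC 3.14, SE 0.28, adjusted p = 7.0e-09; 19.5% of genes called). Over C-LTMRs the difference was 0.87 (SE 0.25, adjusted p = 0.0067) and over Aδ-LTMRs 0.92 (SE 0.25, adjusted p = 0.0091) in edgeR, both under the size required. The call over Aβ RA-LTMRs sat at the threshold (edgeR log2FC 1.01, SE 0.22, adjusted p = 0.0017, 11.0% of genes called). That difference was 0.99 in DESeq2 and 0.76 with limma on the deposited rlog values. No pair among the 6 middle groups was called.

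The mean of the 5 A-fibre subtypes was then set against the mean of the nociceptors and C-LTMRs. The A-fibre subtypes were Aδ, the 3 Aβ and proprioceptors, whose axons are myelinated. Whether the nociceptor groups also held A-fibre neurons was not tested. Hcn2 was higher in the A-fibre subtypes (edgeR log2FC 2.10, SE 0.13, adjusted p = 2.8e-13), where 15.6% of all genes were called higher. Hcn2 ran from 11.4 to 42.9 CPM in the 17 A-fibre libraries and from 2.68 to 10.99 CPM in the other 9, with no overlap, as for 5.81% of genes. Hcn3 was lower in the A-fibre subtypes (edgeR log2FC -1.85, SE 0.12, adjusted p = 1.1e-12), where 12.9% of genes were called lower. Hcn3 ran from 3.01 to 23.5 CPM against 19.6 to 39.7 CPM, and of the A-fibre libraries Aδ-LTMR library 3 alone reached into the other range. In RPKM it was Aδ-LTMR library 2, at 8.05, that reached into the other range, which began at 6.23. Hcn4 did not pass (edgeR log2FC -0.20, SE 0.13, interval -0.47 to 0.06, adjusted p = 0.19). Its A-fibre libraries, from 1.25 to 17.5 CPM, enclosed the others, from 5.24 to 9.87 CPM.

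Satellite glia, which wrap sensory neurons, left RNA in every group. All 8 of their markers were tested, and their mean log2 CPM was 4.43 in nonpeptidergic nociceptors, 5.60 in C-LTMRs, 6.06 in peptidergic nociceptors, 5.66 in SA1-LTMRs, 6.28 in Field-LTMRs, 6.69 in Aδ-LTMRs, 6.80 in RA-LTMRs and 7.19 in proprioceptors. Those markers were thus lowest and highest in the same subtypes as Hcn2. With this mean as a covariate, the A-fibre difference was 2.29 for Hcn2 (edgeR, SE 0.28, adjusted p = 1.1e-06), -1.34 for Hcn3 (edgeR, SE 0.29, adjusted p = 0.0013) and -0.01 for Hcn4 (edgeR, SE 0.31, adjusted p = 0.99). Read length also differed: the SA1-LTMR libraries and RA-LTMR libraries 1 to 3 had a shortest read of 25 bases, and all others 15. Within the RA group, Hcn2 was 29.4 and 35.8 CPM in the libraries of the second kind and 23.8 to 26.3 CPM in those of the first. Hcn3 was 8.57 and 7.24 CPM in the second kind and 8.62 to 10.9 CPM in the first. With read length as a covariate the A-fibre difference was 2.28 for Hcn2, -1.86 for Hcn3 and -0.25 for Hcn4.

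Hcn2 and Hcn3 were set against each other in the same libraries. Across the 26 libraries, their log2 CPM had a Pearson r of -0.71. The value is a description, since libraries of a subtype share their source. Hcn4 followed neither, with r = 0.22 to Hcn2 and r = 0.26 to Hcn3. C-LTMRs had Hcn3 below every nonpeptidergic nociceptor library, though that difference missed the threshold. Their Hcn2 was 1.69 higher on the log2 scale than in those nociceptors (edgeR, SE 0.24, called, as were 24.8% of genes in that pair). Aδ-LTMRs combined an Hcn3 level not separated from peptidergic nociceptors with an Hcn2 level 2.04 higher (edgeR, SE 0.24, called, as were 17.9% of genes).

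**Figure D2:**
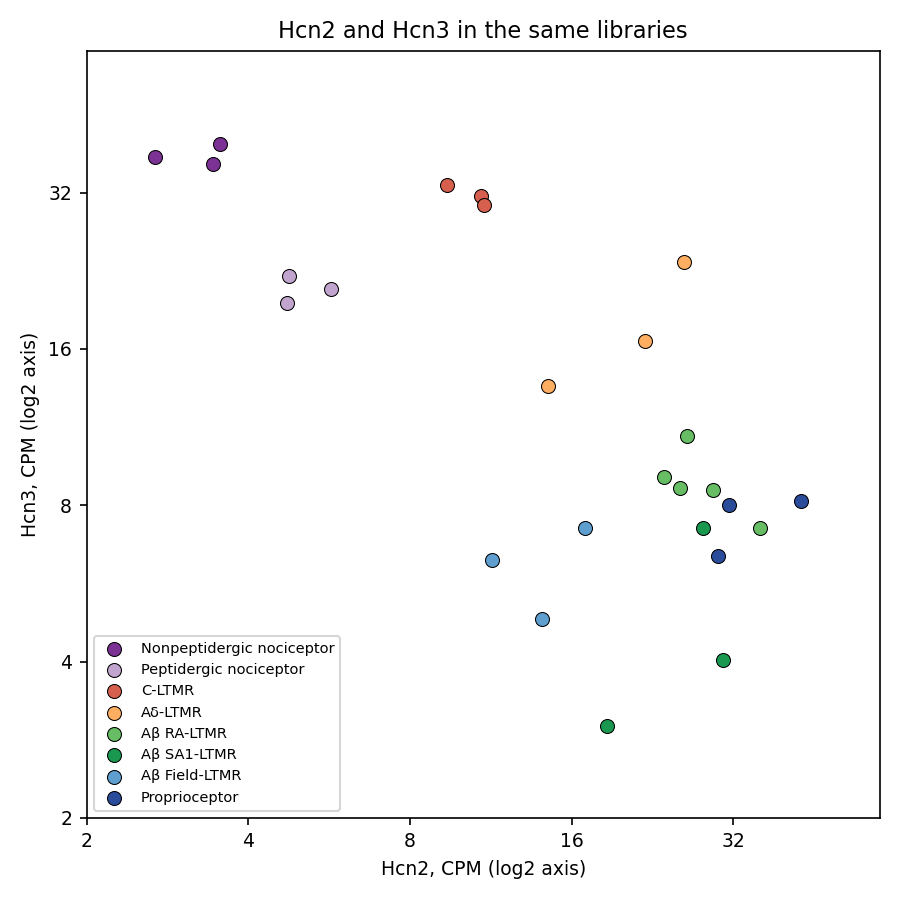
Hcn2 (x axis) against Hcn3 (y axis) in the 26 libraries, both in CPM on log2 axes, with a point per library coloured by subtype. Nociceptors and C-LTMRs lie at the upper left, the Aβ-LTMRs and proprioceptors at the lower right, and the 3 Aδ-LTMR libraries between them; Pearson r is -0.71 on log2 CPM.

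Levels of different genes were compared per length, by deposited RPKM. The 3 genes summed to 14.9 RPKM in nonpeptidergic nociceptors, 11.9 in peptidergic nociceptors, 19.4 in C-LTMRs, 25.2 in Aδ-LTMRs, 14.9 in RA-LTMRs, 13.5 in SA1-LTMRs, 9.24 in Field-LTMRs and 22.3 in proprioceptors. Hcn3 made up most of that sum in nociceptors and C-LTMRs, with 73.1% ± 0.827 in nonpeptidergic nociceptors, 54.6% ± 2.29 in peptidergic nociceptors and 53.6% ± 3.40 in C-LTMRs (SD, n = 3 each). Hcn2 made up most of it in all 5 A-fibre groups. Its share was 55.3% ± 1.94 in Aδ-LTMRs, 70.3% ± 6.87 in RA-LTMRs (n = 5), 77.4% ± 2.61 in SA1-LTMRs, 73.2% ± 5.80 in Field-LTMRs and 67.4% ± 1.78 in proprioceptors. Hcn4 never led: its share ran from 7.18% ± 2.24 in Field-LTMRs to 24.2% ± 2.50 in peptidergic nociceptors and 23.8% ± 2.50 in proprioceptors. Proprioceptors thus had the highest mean Hcn4 level of all groups, while their share differed from that of peptidergic nociceptors by less than the SD of either.

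**Figure D3:**
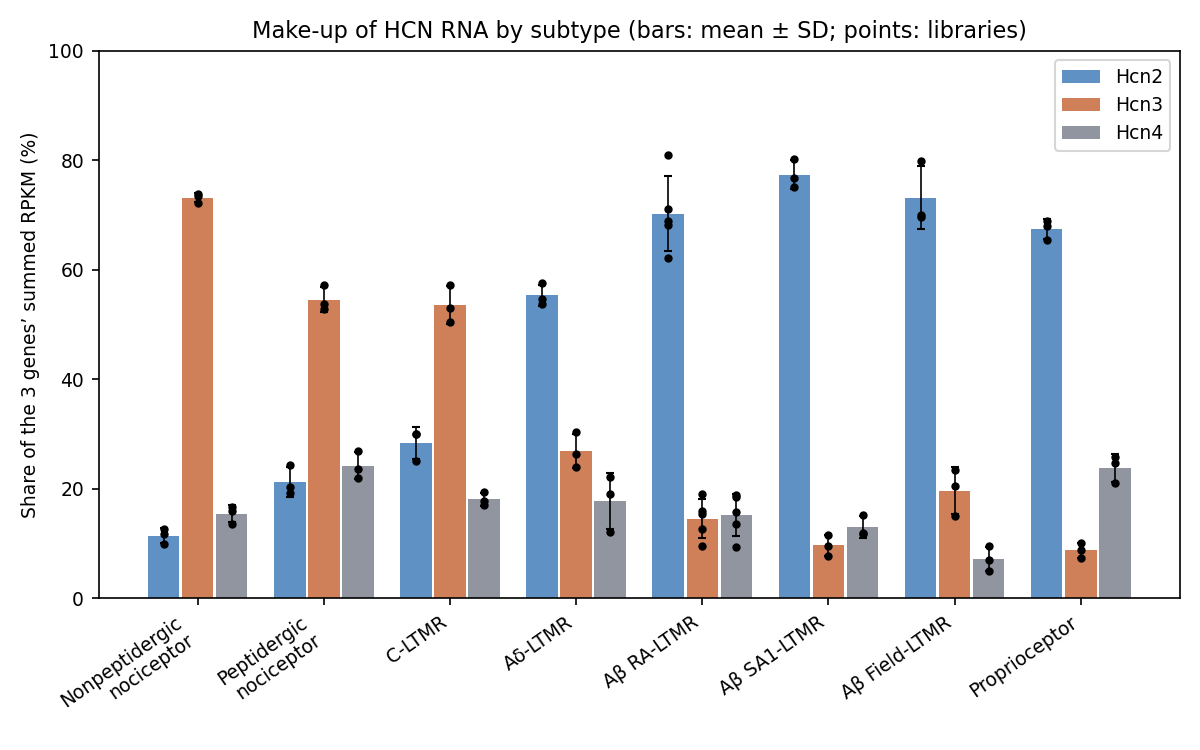
Share of the summed RPKM of Hcn2, Hcn3 and Hcn4 that each gene takes, in percent on an axis from 0 to 100, by subtype; bars are means, whiskers the SD, and points single libraries (n = 3, or n = 5 for Aβ RA-LTMRs). Hcn3 leads in nociceptors and C-LTMRs, at 53.6% to 73.1%, and Hcn2 in the A-fibre subtypes, at 55.3% to 77.4%.

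The log2 ratio of Hcn2 to Hcn3 in RPKM ran from -2.69 ± 0.19 in nonpeptidergic nociceptors over -1.37 ± 0.22 in peptidergic nociceptors and -0.92 ± 0.24 in C-LTMRs to 1.05 ± 0.12 in Aδ-LTMRs. It was 1.92 ± 0.43 in Field-LTMRs, 2.31 ± 0.51 in RA-LTMRs, 2.95 ± 0.22 in proprioceptors and 3.02 ± 0.32 in SA1-LTMRs. The sign was negative in all 9 libraries of nociceptors and C-LTMRs and positive in all 17 A-fibre libraries. The ratio of Hcn2 to Hcn4 was highest in Field-LTMRs, at 3.39 ± 0.55, and lowest in nonpeptidergic nociceptors, at -0.44 ± 0.32. The ratio of Hcn4 to Hcn3 was lowest in nonpeptidergic nociceptors, at -2.25 ± 0.16, and highest in proprioceptors, at 1.45 ± 0.35. Each of the 3 ratios differed over the 8 subtypes in a permutation test with 100000 resamples (p = 1e-05 and adjusted p = 1e-05 over the 3, the smallest the resamples can give).

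RPKM gave a somewhat different order of subtypes than CPM, and Aδ-LTMRs and RA-LTMRs moved most. In RPKM their Hcn2 mean was 13.9, in the second place behind 15.0 in proprioceptors and ahead of 10.4 in RA-LTMRs. Their Hcn3 mean was 6.71 RPKM, just above 6.50 in peptidergic nociceptors. The Hcn4 mean of RA-LTMRs was 2.30 RPKM, in place 6 where it had been in place 4. Aδ-LTMR library 3, the highest of its group in CPM for Hcn2 and Hcn3, was the lowest in RPKM. The 3 libraries stood at 13.7, 16.7 and 11.3 RPKM for Hcn2 and at 6.12, 8.05 and 5.95 RPKM for Hcn3. Proprioceptor Hcn4, from 3.80 to 6.48 RPKM, overlapped Aδ-LTMRs, from 2.39 to 5.83 RPKM, and C-LTMRs, from 3.13 to 4.06 RPKM. In CPM it overlapped neither. The top and bottom subtypes of each gene were the same in both units, with spans of 8.77-fold for Hcn2, 8.09-fold for Hcn3 and 7.89-fold for Hcn4 in RPKM.

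Proteins that bind HCN channels and the enzymes that make and remove cyclic nucleotides were taken from lists compiled for these channels, and their differences are those of the A-fibre subtypes against nociceptors and C-LTMRs. As background for each list, 15.6% of all genes tested were called higher and 12.9% lower. Of 15 partner and regulator genes, 2 were called higher, 2 lower and 11 not. Their median log2FC was 0.11, beside 0.02 over all genes tested. For 2 of the 15 the fit gave no usable error, and without them the median was -0.38, so its sign rests on those 2. Mrvi1, whose product binds HCN4 and alters its response to cyclic AMP, was higher (edgeR log2FC 3.83, SE 0.26, adjusted p = 2.0e-12). It stood at 54.5 ± 2.76 CPM in proprioceptors, the group with the most Hcn4, at 19.8 ± 6.89 CPM in SA1-LTMRs and at 3.78 CPM or less elsewhere. Nedd4l, a ubiquitin ligase, was lower (edgeR log2FC -2.50, SE 0.11, adjusted p = 3.6e-16), as was Cav1, which encodes the membrane scaffold caveolin (edgeR log2FC -2.76, SE 0.26, adjusted p = 9.9e-10). Pex5l, which encodes TRIP8b, the main auxiliary subunit of HCN channels in neurons, differed by a log2FC of 0.36 (edgeR, SE 0.09, adjusted p = 7.3e-04), under the size required. It ran from 51.0 CPM in peptidergic nociceptors to 126 CPM in SA1-LTMRs. Kctd3, a partner of HCN3, differed by -0.70 (edgeR, SE 0.10, adjusted p = 1.3e-06), also under that size. Its highest means, 33.4 CPM in C-LTMRs and 32.6 CPM in nonpeptidergic nociceptors, were in the groups with the most Hcn3. The next highest, 25.3 CPM, was in SA1-LTMRs, the group with the least Hcn3. Kcne2, a small accessory subunit, stood at 0.280 CPM or less in every group and was not called (edgeR adjusted p = 0.29).

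Of 14 genes that supply or restrain cyclic AMP, 3 were called higher, 6 lower and 5 not, with a median log2FC of 0.77, or 0.71 without the 1 gene that had no usable error. Adcy1 (log2FC 2.26, SE 0.19) and Adcy2 (1.35, SE 0.14), both adenylyl cyclases, and Gnai1 (1.09, SE 0.09), an inhibitory G protein subunit, were higher. The largest difference was the lower level of Adcy5, another adenylyl cyclase (edgeR log2FC -3.70, SE 0.17, adjusted p = 1.2e-15). Its mean was 75.2 ± 3.39 CPM in nonpeptidergic nociceptors but 2.26 ± 1.05 CPM in RA-LTMRs. Gnal, a stimulatory G protein subunit (-1.61, SE 0.08), Adcy7 (-1.49, SE 0.32) and the inhibitory subunit gene Gnai3 (-1.47, SE 0.13) were lower too. The highest mean of Adcy1 was not in an A-fibre group but in C-LTMRs, at 214 ± 28.9 CPM, and its lowest was in nonpeptidergic nociceptors, at 2.17 ± 1.32 CPM.

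Of 15 phosphodiesterase genes, whose products break cyclic nucleotides down, 3 were called higher, 7 lower and 5 not, with a median log2FC of -0.82. Pde4a (2.69, SE 0.14), Pde4b (1.69, SE 0.15) and Pde7b (1.34, SE 0.22) were higher. Pde8a (-1.81, SE 0.31), Pde10a (-1.39, SE 0.12), Pde1c (-1.32, SE 0.13) and Pde3b (-1.30, SE 0.13) were lower. Pde1c was high in one A-fibre group all the same, at 538 ± 119 CPM in Aδ-LTMRs against 8.80 ± 3.30 CPM in proprioceptors. With the satellite glia markers as a covariate, 4 phosphodiesterases were called lower in place of 7. Calls fell over all genes too with that covariate, to 1454 lower in place of 2246 and 1528 higher in place of 2723. Of 7 cyclic GMP genes, 3 were called higher and none lower, with a median log2FC of 0.63, and 1 was called higher with the glia covariate. Prkg2, a protein kinase driven by cyclic GMP, was the called gene with a mean of 5 CPM or more (edgeR log2FC 2.23, SE 0.14, adjusted p = 2.8e-13). The channels nearest in kind to HCN, the cyclic nucleotide-gated channels, were barely detected. Of 6 such genes 3 passed the filter, none above 0.601 CPM in any subtype, and 1 of the 3 was called, lower in the A-fibre subtypes.

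**Figure D4:**
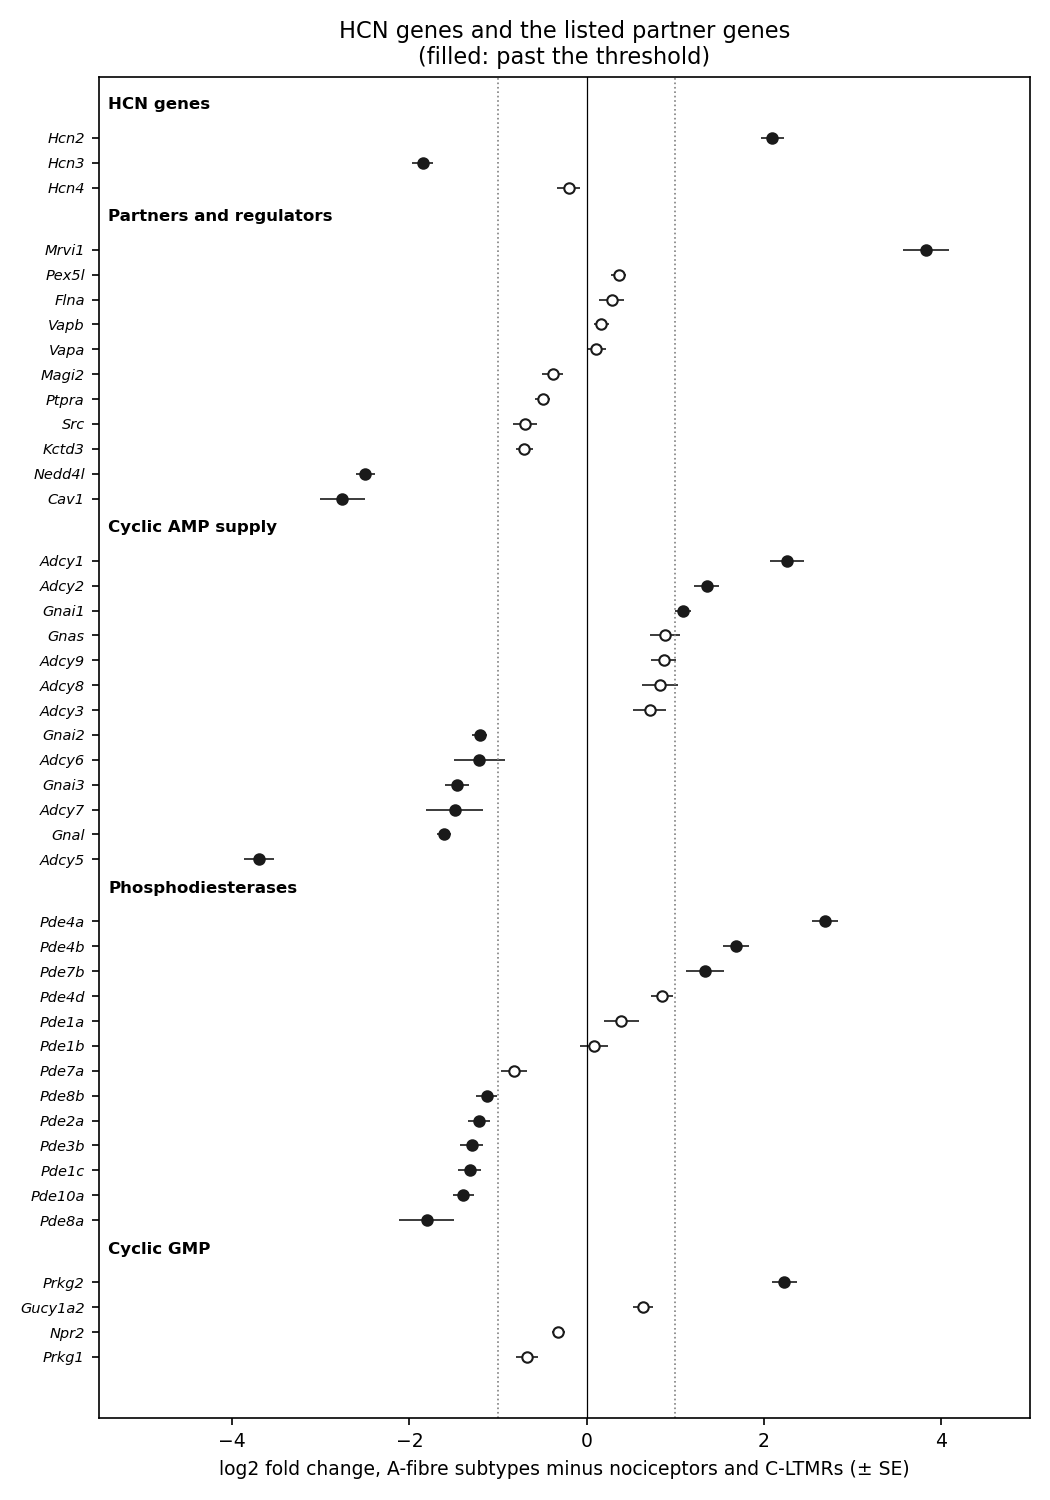
Difference between A-fibre subtypes and nociceptors with C-LTMRs (x axis, log2 fold change with its SE, from edgeR) for the 3 HCN genes and for listed genes with a mean of at least 5 CPM in some subtype; filled points passed the threshold, and dotted lines mark a log2 fold change of 1 in each direction. Hcn2 lies at 2.10, Hcn3 at -1.85 and Hcn4 at -0.20, and each list of partners, cyclic AMP genes and phosphodiesterases has filled points on both sides.

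The genes whose levels ran most like each HCN gene were ranked by Pearson r of log2 CPM over the 26 libraries, among 10754 genes with a mean of at least 5 CPM in some subtype. For Hcn2 they were Zfp385a (r = 0.972), Rap1gap (0.963), Ankrd34c (0.958), Cables2 (0.956) and Ckmt1 (0.955). Zfp385a, which encodes a zinc finger protein, rose from 1.25 ± 0.228 CPM in nonpeptidergic nociceptors to 63.6 ± 19.7 CPM in proprioceptors. For Hcn3 they were Lats2 (r = 0.933), Ndst1 (0.929), Grn (0.924), Syt1 (0.922) and Lpcat3 (0.921). Lats2, a kinase gene of the Hippo pathway, differed from Hcn3 in being highest in C-LTMRs, at 175 ± 13.6 CPM, with 120 ± 5.83 CPM in nonpeptidergic nociceptors. Hcn4 had less close company, led by Chst8 (r = 0.844), Meis3 (0.842), Slc7a8 (0.814), Npc1 (0.808) and Mfsd4 (0.774). Chst8, which encodes a sulfotransferase, shared both ends with Hcn4, at 41.2 ± 4.93 CPM in proprioceptors and 4.40 ± 0.640 CPM in Field-LTMRs. These correlations are descriptions over libraries that share subtype and depth.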

How the data were processed

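The authors deposited raw counts per Ensembl gene, log2 values named rlog, RPKM, and an alignment summary for 26 libraries. In that summary, the authors deposited GC content in percent, the ratio of 5' to 3' bias, exonic, mapping and duplicate rates (each a fraction), mapped reads as counts, and read lengths. Per the labels' protocols, RNA was amplified with a NuGEN kit before TruSeq libraries were made. The submitters' processing notes list FastQC 0.11.3, STAR, Cuffdiff, DESeq2 1.14.1, HTSeq 0.6.1 and mm10, with no roles. RPKM was not a fixed multiple of CPM from library to library, so its order of subtypes can differ.

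The counts were tested in R 4.3.3 with edgeR 4.0.16: filterByExpr left 17411 of 39017 genes, TMM scaled the libraries, and a robust quasi-likelihood fit over 8 groups gave an F test, 28 pairs and the A-fibre contrast. Benjamini-Hochberg adjustment ran over all genes tested, and calls needed an adjusted p under 0.05 and, outside the F test, a log2 fold change of 1 or more in size. An SE was taken as that change over the square root of F. CPM used TMM, and correlations used log2 CPM with a prior count of 2. RPKM ratios had no pseudocount and were tested by permutation. The alternatives used DESeq2 1.42.0 and limma 3.58.1, and the script was tested on simulated data. Python 3.11.15, Biopython 1.88 and matplotlib 3.10.9 read sequences and drew figures. Positions and sequences are from GENCODE M21 (GRCm38, the assembly of mm10). Replicate numbers did not pair the libraries.

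Of each list, up to 4 called genes per direction were named, with a mean of at least 5 CPM in some subtype, plus Pex5l, Kcne2 and Kctd3, and 5 genes most like each member. Named pairs of subtypes were picked after their values were seen. The members, lists and tests were chosen with earlier results of these data known. P-values measure the spread between pools of mice, and amplified pools give relative RNA levels, not protein.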

Additional observations from a re-analysis of the deposited data

How the results depend on the processing

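Against 11 other settings (DESeq2 size factors or DESeq2, no filter on low counts, without Aδ-LTMR libraries 1 and 2, a replicate block, 3 covariates, limma on RPKM with 0.1 or 1 added, and limma on rlog), the A-fibre difference ran from 1.45 to 2.29 for Hcn2, from -1.94 to -1.34 for Hcn3 and from -0.33 to -0.01 for Hcn4. None of these 3 changed its direction or its side of the threshold, nor did the F tests. The ratio tests were run with 2 other settings (CPM, and 0.1 added to RPKM), where p was again the smallest the resamples can give, which says nothing of stability. Called pairs ran from 12 to 19 for Hcn2, 12 to 17 for Hcn3 and 5 to 12 for Hcn4, where 5 came with limma on log2(RPKM + 1), a scale that shrinks low values. With the satellite glia covariate, 4 phosphodiesterases and 0 cyclic nucleotide-gated channel genes were called lower, and 1 cyclic GMP gene higher. Over all genes that covariate left 1454 called lower and 1528 higher, and the cause was not tested. With the read-length covariate, 1 cyclic GMP gene was called lower. Without each library in turn, the A-fibre difference ran from 2.05 to 2.15 for Hcn2, -1.94 to -1.81 for Hcn3 and -0.25 to -0.15 for Hcn4, and called pairs from 15 to 18, 16 to 19 and 9 to 11. Over all genes, 2723 were called higher and 2246 lower, against 1608 and 2169 with limma on log2(RPKM + 0.1), where the median gene moved to -0.15.

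Differences near a log2 fold change of 1 moved across it. C-LTMRs over peptidergic nociceptors in Hcn2 was 0.96 with the glia covariate, 0.88 and 0.70 with limma on log2(RPKM + 1) and rlog, and at the lowest 0.99 without peptidergic nociceptor library 1 or 3 or C-LTMR library 3. Aδ- over C-LTMRs in Hcn2 passed in 6 of the 11 settings, at 1.00 with the replicate block, 1.17 and 1.31 with the glia and read-length covariates, 1.31 and 1.18 with limma on log2 RPKM with 0.1 or 1 added, and 1.30 without Aδ-LTMR libraries 1 and 2, where the lone library left is assumed to vary like the other groups. It also passed without Aδ-LTMR library 1 (1.17) or C-LTMR library 2 or 3. RA- under Aδ-LTMRs in Hcn3 was -0.99 without the filter and under 1 in size without Aδ-LTMR library 3 (-0.76), RA-LTMR library 2, 4 or 5, SA1-LTMR library 2 or proprioceptor library 1. Proprioceptors over RA-LTMRs in Hcn4 passed in 5 of the 11 settings and was lowest, at 0.76, with limma on rlog. It was also under 1 without RA-LTMR library 5 (0.91), 1 or 2, or Aδ-LTMR library 1 or 2. The same held without SA1-LTMR library 2 or proprioceptor library 1 or 3. Replicate numbers showed no pairing: same-numbered libraries of different subtypes had correlations of deviations from -0.15 to 0.24, and 10 of 24 libraries matched their own number best. With the replicate block, the A-fibre difference was 2.07 for Hcn2, -1.84 for Hcn3 and -0.20 for Hcn4, and RA- under Aδ-LTMRs in Hcn3 was -0.92. The lowest counts, 22 for Hcn4, 62 for Hcn3 and 112 for Hcn2, limit the precision of those libraries.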
